A study of Mus musculus with 6 samples.

Results

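Serpin genes were examined in gastrocnemius and plantaris muscle of mice with and without a C26 tumor. The members are the genes whose symbol starts with Serpin, a clade letter from a to i and a number, and 54 of the 18782 uniquely named probe sets of the array carry such a symbol, out of 21212 probe sets in all. Clade a was represented by 19 genes and clade b by 26. Clades f and i had 2 genes each, and clades c, d, e, g and h had 1 each. Serpin probe sets that carry no symbol in the platform table are not analysed here.

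C26 is a colon adenocarcinoma line of the mouse, and its growth in mice leads to severe loss of muscle. All mice were male CDF1 animals, 8 weeks old at the start. Control mice (3) received 150 µL of PBS with matrigel under the skin of each flank, C26 mice (4) received C26 cells in the same mixture, and muscles were taken 25 days later. RNA of 2 to 3 muscles of a group was pooled, which gave 3 pools from control mice, numbered 1, 2 and 3, and 3 pools from C26 mice, numbered 1, 3 and 4. Each pool was measured on 1 Affymetrix Mouse Gene 1.0 ST array. The sources used here do not give which muscles entered which pool, so that pools may share a mouse, and the p-values measure only the spread between pools.

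Serpins are a family of proteins that share a fold with an exposed loop, the reactive centre. In the inhibitory members a target protease cuts this loop, the serpin changes shape, and the protease is trapped in a covalent complex. Some serpins have lost this activity and serve as hormone carriers, as chaperones or as signals to other cells. Clade a holds secreted proteins related to alpha-1-antitrypsin, many of them made in liver, and clade b holds intracellular proteins related to ovalbumin that protect cells from their own proteases. Clades c to i hold inhibitors of clotting, of plasmin and of complement, as well as the collagen chaperone HSP47 and the brain protein neuroserpin.

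All values are log2 expression values from robust multi-array analysis (RMA). Array medians lay between 4.93 and 5.02. The correlation between arrays was 0.994 to 0.996 within a group and 0.976 to 0.981 between groups. An array background of 3.82 (log2) was taken as the 95th percentile of the mean level of 1259 probe sets for odorant and vomeronasal receptors, genes of sensory neurons, and a gene was counted as above it where the mean of at least 1 group was higher. The comparison of both groups used limma on every probe set. The words rose and fell are kept for genes that passed, with an adjusted p of 0.05 or less and a change of 1.5-fold or more. By this rule 5.94% of all probe sets rose and 4.95% fell. Rises made up 54.6% of the calls, and 64.6% after centring each array on its median. All 12 markers of skeletal muscle fibres lay above the background.

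Most serpin genes could not be told from the background of the array. Of the 54 genes, 12 (22.2%) lay above it in at least 1 group, against 70.2% of all probe sets. These were Serpina1b, Serpina3i, Serpina3n and Serpina11 of clade a, Serpinb6a, Serpinb6b and Serpinb8 of clade b, Serpine3 of clade e, Serpinf1 and Serpinf2 of clade f, Serping1 of clade g and Serpinh1 of clade h. No gene of clades c, d and i lay above it. Serpind1 of clade d lay just under it, with a control mean of 3.81881 against 3.82035. This gene lay above the background without control replicate 1 or 3, and without C26 replicate 1 or 4. With the 99th percentile of the receptor probe sets as the background (4.84), 7 genes remained, and Serpina11, Serpinb6b, Serpinb8, Serpine3 and Serpinf2 lay under it.

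In C26 muscle 2 serpin genes rose, Serpina3n and Serping1, and 3 fell, Serpinf1, Serpinh1 and Serpinb6b. The C26 pools of Serpinb6b lay under the background, and its call depended on the test. The other 49 did not pass. Read against the 5.94% and 4.95% of all probe sets that rose and fell, these counts are no result about the family as a whole. The pools of the 2 groups did not overlap for 12 of the 54 genes, of which 4 were higher and 8 lower in C26 muscle, and among all probe sets 19.3% were higher and 24.6% lower in every C26 pool. As a median, the difference (log2) of the 54 serpin genes was −0.04, against −0.05 for all probe sets, with −0.02 in clade a and −0.03 in clade b.

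**Figure D1:**
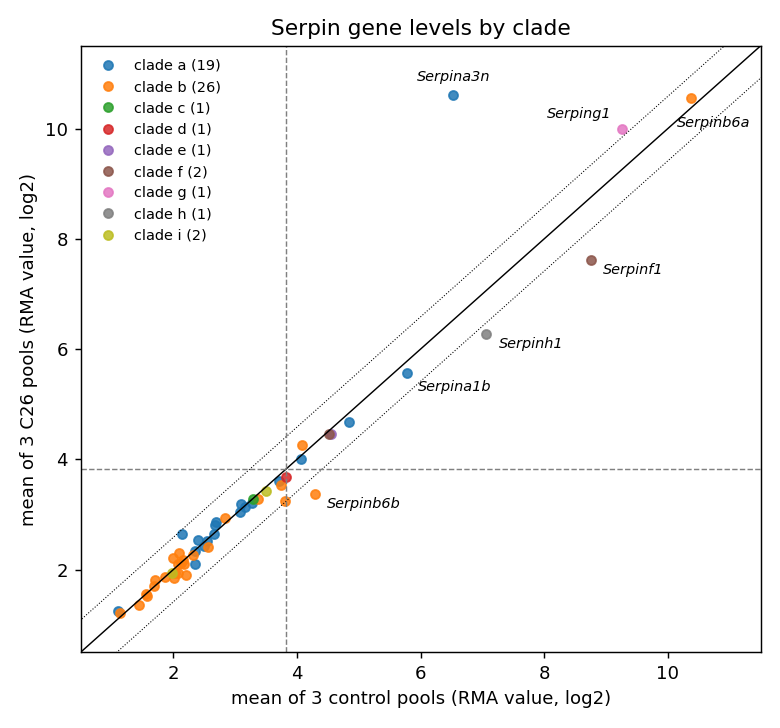
Mean RMA value (log2) of each serpin gene in 3 control pools (horizontal axis) and 3 C26 pools (vertical axis), with 1 point per gene, coloured by clade. The solid line marks equal levels, dotted lines a 1.5-fold change and dashed lines the array background of 3.82. Serpina3n lies far above the solid line, and most genes of clades a and b lie on it in the lower left corner, under the background.

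Serpina3n, a secreted inhibitor related to human antichymotrypsin and an acute phase gene, had by far the largest change of the family. Promoter windows of Serpina3n and of its named neighbours on chromosome 12, Serpina3i and Serpina3f, are shown because Serpina3n rose and its neighbours did not pass. The windows are from RefSeq (GRCm38.p6, plus strand, 250 bases before to 50 after the start) and cover chr12:104406458-104406757, chr12:104262872-104263171 and chr12:104214294-104214593. Capitals mark matches to a form of the kappaB site, to TTCNNNGAA, a form of the STAT site, and to TTNNGCAA, a form of the C/EBP site, where N is any base.
Serpina3n: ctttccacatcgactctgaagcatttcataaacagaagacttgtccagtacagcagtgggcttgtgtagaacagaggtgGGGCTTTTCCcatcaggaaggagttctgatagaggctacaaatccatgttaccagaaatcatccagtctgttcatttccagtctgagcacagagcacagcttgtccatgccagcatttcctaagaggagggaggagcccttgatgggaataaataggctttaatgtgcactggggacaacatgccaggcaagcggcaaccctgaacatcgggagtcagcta
Serpina3i: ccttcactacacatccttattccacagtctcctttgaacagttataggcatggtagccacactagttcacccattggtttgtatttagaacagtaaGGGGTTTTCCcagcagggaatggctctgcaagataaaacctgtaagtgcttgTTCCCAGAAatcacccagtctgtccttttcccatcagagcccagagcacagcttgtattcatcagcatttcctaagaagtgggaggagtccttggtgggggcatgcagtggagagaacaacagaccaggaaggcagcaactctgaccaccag
Serpina3f: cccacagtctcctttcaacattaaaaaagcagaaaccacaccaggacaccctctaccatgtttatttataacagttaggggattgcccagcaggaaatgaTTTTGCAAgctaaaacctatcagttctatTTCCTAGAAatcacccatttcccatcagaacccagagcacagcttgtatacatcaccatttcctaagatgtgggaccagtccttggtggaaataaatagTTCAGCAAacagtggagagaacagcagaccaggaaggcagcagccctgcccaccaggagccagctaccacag

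In the 3 control pools Serpina3n had values of 6.69, 6.68 and 6.22, and in the 3 C26 pools 10.51, 10.69 and 10.61. Every C26 pool lay clearly above every control pool, and the C26 pools were close together. The mean rose from 6.53 ± 0.27 to 10.60 ± 0.09 (SD, n = 3 pools each), or by 4.07 on the log2 scale (16.8-fold, SE of the log2 value 0.13, adjusted p = 8.66e-07 from limma). An exact permutation test over the pools (two-sided) gave p = 0.1, the smallest that 3 against 3 pools allow. Serpina3n rose under each of the 17 alternatives run, with log2 fold changes of 3.92 to 4.15. Among these, the runs that changed only the limits on p or fold used the same fit. The values above fixed their outcome.

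The other measured genes of the Serpina3 cluster did not pass the test, and their difference from Serpina3n was not tested. Serpina3i had values of 5.12, 4.93 and 4.49 in control and 4.68, 4.88 and 4.46 in C26 pools. The groups overlapped, and the difference of −0.17 had a 95% interval of −0.55 to 0.21. Serpina3f had values of 2.06, 2.12 and 2.25 in control and 2.53, 2.34 and 3.07 in C26 pools. Each C26 pool of Serpina3f was higher than each control pool, but all values lay under the background, and the difference of 0.50 (SE 0.17, adjusted p = 0.0548 from limma) did not pass. Without C26 replicate 3 the difference was 0.66 with an adjusted p of 0.0241 from limma, and passed. Without C26 replicate 4 it was 0.29 (adjusted p = 0.0812 from limma). With the replicate number as a block it was 0.28 (adjusted p = 0.225 from limma). The block fit takes its difference only from pools 1 and 3 of each group, and so not from C26 replicate 4. Serpina3a and Serpina3b, also under the background, differed by 0.18 and 0.10. Genes of this cluster, like those of the Serpinb clusters, are close copies with uncertain values, and whether probes of 1 gene also bind transcripts of another was not tested.

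The promoter window of Serpina3n was 68.6% identical to that of Serpina3b, which holds no match to the kappaB form, 63.4% to that of Serpina3i and 62.7% to that of Serpina3f (the first of its 2 windows) in a global alignment. The kappaB form was found from base −171 to −162 of the Serpina3n window and from −154 to −145 of the Serpina3i window, counted from the start, and all 10 bases of these matches fell in the same columns of the alignment. The letters were present in the windows of both genes, and whether they play a part in the level of either was not tested. Of 27025 genes with a window, 512 (1.89%) held this form on either strand. The forms TTCNNNGAA and TTNNGCAA were found in the window of Serpina3f but not in that of Serpina3n. The windows of the 3 genes that fell, Serpinf1, Serpinh1 and Serpinb6b, held none of these forms nor GAANNTTC, a form of the heat shock element.

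Over the family 47 of the 54 genes, Serping1 not among them, had a window, all searched on both strands. TTNNGCAA was found in 13 of the 47 (27.7%, against 12.2% of all genes), TTCNNNGAA in 7 (14.9% against 9.55%), GAANNTTC in 5 (10.6% against 9.04%) and the kappaB form in 2 (4.26% against 1.89%). Windows of neighbouring copies share sequence, so that these genes are not independent, and TTCNNNGAA and GAANNTTC can overlap. A match is a description of the letters and not of a bound site.

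Serpina1b, a gene of the alpha-1-antitrypsin group whose human counterpart inhibits neutrophil elastase, had values of 5.98, 6.17 and 5.20 in control and 5.39, 5.40 and 5.89 in C26 pools. The groups overlapped, control replicate 3 lay under all other pools, and the 95% interval of the difference, −0.78 to 0.33, reached past a 1.5-fold decrease. The other measured Serpina1 genes lay under the background. Whether the probes of Serpina1b also bind their transcripts, or the reverse, was not tested. Serpina11 had 4.11, 4.12 and 3.98 against 4.10, 3.97 and 3.96 (difference −0.06, 95% interval −0.24 to 0.13). The 15 other genes of clade a lay under the background in both groups, with differences of −0.25 to 0.50. Among them were the carriers of corticosteroids and thyroid hormone, Serpina6 and Serpina7, the protein C inhibitor gene Serpina5 and Serpina12, which encodes vaspin. Serpina7 was lower in each C26 pool (−0.25, SE 0.08, adjusted p = 0.0371 from limma), which is less than 1.5-fold and under the background.

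**Figure D2:**
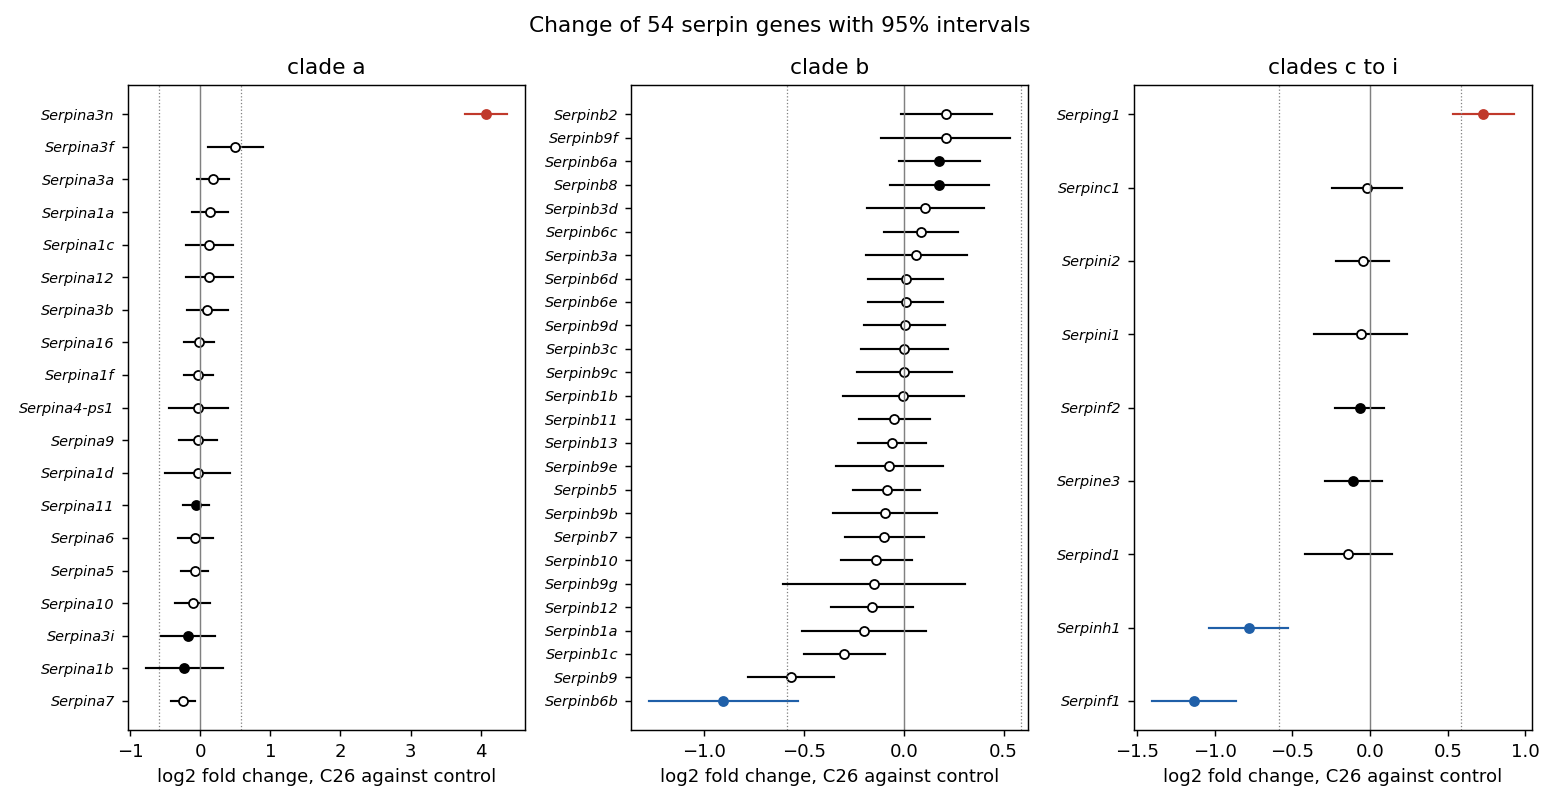
Log2 fold change (C26 against control, horizontal axis) of the 54 serpin genes with its 95% interval from limma, in 3 panels for clade a, clade b and clades c to i. Red marks genes that rose and blue genes that fell, filled points lie above the array background and open points under it, and dotted lines mark 1.5-fold. Serpina3n at 4.07 stands alone in clade a, and nearly all open points sit close to 0.

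Serping1, which encodes the C1 inhibitor that blocks the complement proteases C1r and C1s and plasma kallikrein, was the other gene that rose. Its values were 9.22, 9.39 and 9.20 in control and 10.08, 9.94 and 9.96 in C26 pools, without overlap. The mean rose from 9.27 ± 0.11 to 9.996 ± 0.08 (SD, n = 3 pools each), or by 0.73 on the log2 scale (SE 0.09, 1.66-fold, adjusted p = 0.000349 from limma). Of its targets, C1s1 rose by 0.63 (SE 0.08, adjusted p = 0.00047), whereas C1ra had a difference of 0.10 (SE 0.13) and Klkb1, the kallikrein gene, lay under the background. Masp1, a protease of the lectin pathway that C1 inhibitor also blocks, was higher by 0.46 (adjusted p = 0.00453) but by less than 1.5-fold.

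Some markers of other cell types rose beside Serpina3n and Serping1, where 5.94% of all probe sets rose. Of 11 macrophage markers 7 rose. The summed linear signal of the 11 was 863 to 973 in control and 1420 to 1480 in C26 pools. Among those that did not pass, Adgre1 differed by 0.002 (SE 0.08) and Csf1r by 0.02 (SE 0.08), with overlap. Of 12 neutrophil markers 8 rose (112 to 121 against 260 to 313), with Camp, Ltf, Ly6g and Ngp under the background, of which Ngp is among the 8. The 3 measured red blood cell markers Hbb-bt, Alas2 and Slc4a1 rose as well (223 to 296 against 403 to 589). The part of these cells in the rises of Serpina3n and Serping1 was not tested, and in whole muscle a change in the number of cells and a change in RNA per cell cannot be told apart. Both genes are also made in liver. Of 12 hepatocyte markers 9 lay under the background in both groups, among them Alb, Ahsg and Ttr. Of the other 3, Apoa1 and Apoa2 did not pass, and Cyp2e1 rose by 0.95 (SE 0.16). The summed signal of the hepatocyte markers, which include Serpina1a, was 228 to 284 in control and 350 to 381 in C26 pools, and 141 to 154 and 137 to 147 without Cyp2e1.

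**Figure D3:**
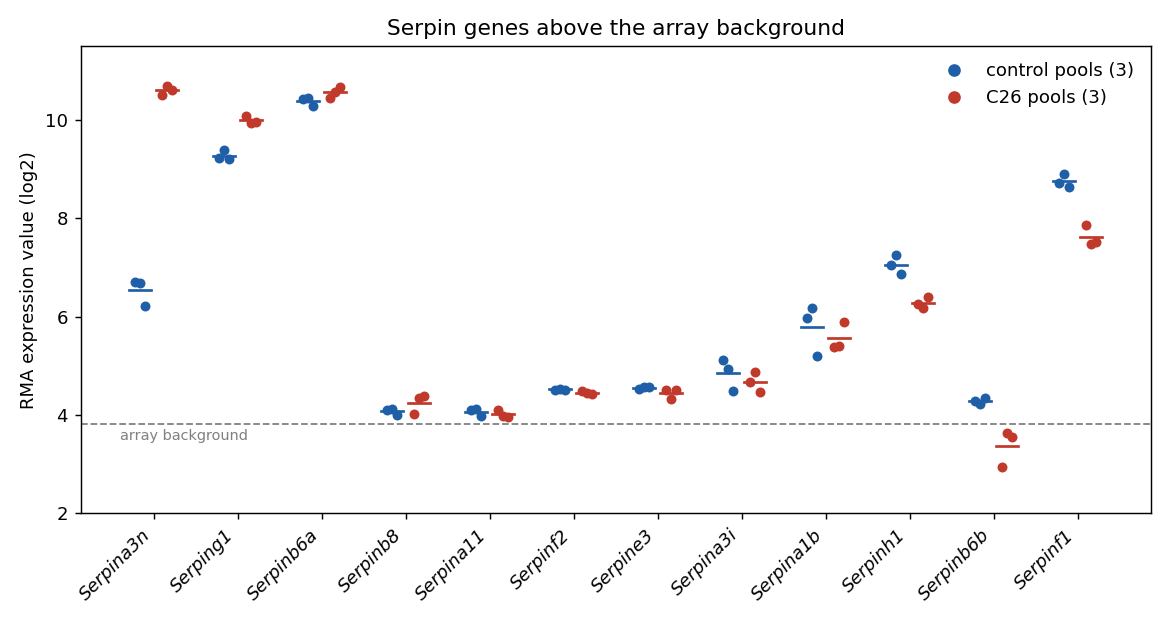
RMA value (log2, vertical axis) of the 12 serpin genes above the array background per pool, blue for the 3 control pools and red for the 3 C26 pools, with a line at each group mean, ordered by log2 fold change from Serpina3n at the left to Serpinf1 at the right. The dashed line is the array background of 3.82. The groups are well apart for Serpina3n, Serping1, Serpinh1, Serpinb6b and Serpinf1, lie close without overlap for Serpinb6a, Serpine3 and Serpinf2, and overlap for the others, and Serpinb6b lies under the background in C26 muscle.

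Serpinf1 and Serpinh1 fell. Serpinf1 encodes PEDF, a secreted serpin without inhibitory activity that restrains vessel growth and binds collagen. It had values of 8.72, 8.89 and 8.64 in control and 7.86, 7.48 and 7.52 in C26 pools, without overlap. The mean fell from 8.75 ± 0.13 to 7.62 ± 0.21 (SD, n = 3 pools each), a difference of −1.13 on the log2 scale (2.19-fold, SE 0.12, adjusted p = 0.000192 from limma). Serpinh1 encodes HSP47, a chaperone of the endoplasmic reticulum that binds procollagen and does not inhibit proteases. It had values of 7.05, 7.25 and 6.87 in control and 6.25, 6.17 and 6.41 in C26 pools, also without overlap. The mean fell from 7.06 ± 0.19 to 6.27 ± 0.12 (SD, n = 3 pools each), a difference of −0.78 (1.72-fold, SE 0.11, adjusted p = 0.00101 from limma).

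Many genes that act with Serpinh1 fell. Of 26 measured genes of procollagens and their folding enzymes, 12 fell and 1 rose, where 4.95% of all probe sets fell and 5.94% rose. Their median log2 fold change was −0.43, against −0.05 over all probe sets. The fibrillar collagen genes Col1a1 (−2.61, SE 0.19) and Col1a2 (−2.29, SE 0.15) and the collagen genes Col6a1 (−1.43, SE 0.11) and Col15a1 (−1.38, SE 0.18) had the largest falls. P4ha1, a prolyl hydroxylase gene that stabilizes the collagen helix, fell by 0.73, and Plod2, which hydroxylates lysines of collagen, rose by 0.72. By a test with unequal variances 5 genes of this list fell and 0 rose. Of 13 genes of other heat shock chaperones, Dnajb9, a cochaperone of the endoplasmic reticulum, rose by 1.11 (SE 0.14) and the others did not pass (median 0.09). By a test with unequal variances 0 of them rose, and 1 fell without control replicate 3.

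Pnpla2, which encodes the lipase ATGL and has been described as a receptor of PEDF, rose by 1.10 (SE 0.10, adjusted p = 7.9e-05 from limma), whereas Serpinf1 itself fell. Some markers of fibroblasts, tendon cells and adipocytes fell beside Serpinf1 and Serpinh1, where 4.95% of all probe sets fell. Of 11 fibroblast markers 6 fell and 1 rose, and their summed signal was 6080 to 6730 in control and 3850 to 4390 in C26 pools. Without Col1a1 and Col3a1 the sum of the other 9 was 3200 to 3490 and 3220 to 3500. These collagen genes thus carry the difference of the sum, which follows the brightest markers. Of the 11 markers, 7 were lower and 3 higher in every C26 pool, where 24.6% of all probe sets were lower and 19.3% higher. Their median log2 fold change was −0.66. Fbln1, which rose by 0.89, and Pdgfra (0.50) and Pi16 (0.41), which did not pass, were higher in every C26 pool. Dcn, a defining marker of fibroblasts, differed by 0.03 (SE 0.08). Of 9 tendon markers 6 fell (3140 to 3650 against 1730 to 1760), and of 8 adipocyte markers 3 fell, Plin1, Lep and Adipoq (1050 to 1120 against 916 to 1050). The 5 Schwann cell markers were lower in every C26 pool, as were 24.6% of all probe sets, and did not pass (650 to 846 against 500 to 526). Collagen genes stand on the fibroblast list and on the procollagen list alike, and the part of these cells in the falls of Serpinf1 and Serpinh1 was not tested.

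Clade b held the gene Serpinb6a, an intracellular inhibitor found in many tissues, above the background in both groups. Its values were 10.43, 10.43 and 10.27 in control and 10.44, 10.56 and 10.67 in C26 pools. The C26 pools were all slightly higher, and the difference of 0.18 (95% interval −0.03 to 0.38) did not pass. Its paralog Serpinb6b fell, with values of 4.29, 4.22 and 4.35 in control and 2.95, 3.63 and 3.55 in C26 pools. All C26 pools lay under the background, with means of 4.28 ± 0.06 and 3.38 ± 0.37 (SD, n = 3 pools each), so that the fitted difference of −0.90 (SE 0.16, adjusted p = 0.00336 from limma) is better read as at least 1.38-fold lower. That bound lies under the 1.5-fold minimum, so the call rests on the fitted difference. The call was lost by the methods' t-test (adjusted p = 0.0591, equal variances) and by a test with unequal variances (adjusted p = 0.155), as well as under a 2-fold minimum. Adjusted p-values of its alternatives lay between 0.00109 and 0.155.

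Serpinb8, an intracellular inhibitor that can block furin, had values of 4.10, 4.13 and 4.00 in control and 4.02, 4.35 and 4.40 in C26 pools, with overlap and a difference of 0.18 (95% interval −0.07 to 0.43). Serpinb9, which protects immune cells from granzyme B, lay just under the background, with values of 3.90, 3.80 and 3.72 in control and 3.14, 3.40 and 3.18 in C26 pools. Every C26 pool was lower, and the difference of −0.57 (SE 0.09, adjusted p = 0.00217 from limma) fell short of 1.5-fold. It passed without control replicate 3 (−0.61) and without C26 replicate 3 (−0.64). Of 10 markers of cytotoxic lymphocytes 6 lay under the background, Gzma and Gzmb among them, and all 10 failed to pass (summed signal 111 to 119 in control and 102 to 107 in C26 pools). The 23 genes of clade b under the background had differences of −0.57 to 0.21. They include Serpinb5, the maspin gene of epithelia, and the measured copies of the Serpinb1, Serpinb3 and Serpinb9 groups.

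Of the other genes of clades c to f and i, among them inhibitors of clotting and of plasmin, Serpinf2 and Serpine3 lay above the background and did not pass. Serpinf2, the alpha-2-antiplasmin gene, had values of 4.51, 4.54 and 4.51 in control and 4.48, 4.44 and 4.43 in C26 pools. The groups did not overlap, but the difference was small (−0.07, 95% interval −0.22 to 0.09). Serpine3, whose function is little known, had 4.53, 4.58 and 4.57 against 4.52, 4.33 and 4.51 (difference −0.11, 95% interval −0.29 to 0.08). Serpinc1 (antithrombin), Serpind1 (heparin cofactor II), Serpini1 (neuroserpin, which inhibits tissue plasminogen activator in brain) and Serpini2 lay under the background, with differences of −0.14 to −0.02. Among these Serpind1 lay just under it, and above it in some runs with an array left out. Of the 49 serpin genes that did not pass, 45 had a 95% interval within 1.5-fold either way, and for most of these a low level limits what could be seen.

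Of 33 measured genes of proteases that serpins block, 24 lay above the background, 4 rose, 2 fell and 27 did not pass, with a median of 0.04, where 5.94% of all probe sets rose and 4.95% fell. Ctsl, the lysosomal cathepsin L gene, rose by 1.99 (SE 0.08, adjusted p = 1.96e-06 from limma), and Ctss (cathepsin S) and Furin (a proprotein convertase) rose by 0.60 and 0.59. Hpn, the hepsin gene, fell by 0.66 and Mcpt4, a mast cell chymase gene, by 0.76. The neutrophil protease genes Elane, Prtn3 and Ctsg, targets of antitrypsin and antichymotrypsin type serpins, had group means of 3.12 to 4.00 and differences of 0.06, 0.16 and 0.07, which did not pass. Without control replicate 3, or with cyclic loess normalization, 2 proteases rose.

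In the plasminogen system, which inhibitors such as Serpinf2 oppose, 2 of 19 measured genes rose and 1 fell (median −0.10). Read against the 5.94% and 4.95% of all probe sets that rose and fell, these counts are no result about the system as a whole. Plat, the tissue plasminogen activator gene, differed by −0.54 (adjusted p = 0.00906 from limma) and Plau, the urokinase gene, by 0.35 (adjusted p = 0.0135), both under 1.5-fold, and Plg, the plasminogen gene, lay under the background. Thbs1 (thrombospondin) rose by 1.17, Mmp14 (a membrane metalloproteinase) by 0.71, and Tgfb2, a transforming growth factor gene, fell by 1.23. A test with unequal variances gave 0 rises, and 2 genes fell without control replicate 3 and without C26 replicate 4. Of 14 genes of serpin receptors, cofactors and partners, 4 rose and 2 fell (median 0.23), against the same shares of all probe sets. Besides Pnpla2 these were Sdc4, a heparan sulfate proteoglycan (1.40, SE 0.12), Procr, the protein C receptor (0.91, SE 0.10), and Vldlr, which takes up serpin complexes (0.82, SE 0.08), against Kdr (−1.21, SE 0.11) and Hspg2 (−0.83, SE 0.09), a receptor of vessel growth and the perlecan gene. By a test with unequal variances 1 rose and 1 fell. Lrp1, the main clearance receptor of serpin complexes, was higher by 0.56 (SE 0.07), just under 1.5-fold.

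Of 35 measured genes of protease inhibitors outside the serpin family, 24 lay above the background, 4 rose, 2 fell and 29 did not pass, with a median of −0.02, where 5.94% of all probe sets rose and 4.95% fell. Timp1, an inhibitor of metalloproteinases, rose by 1.02 (SE 0.11), Kng2, a kininogen that inhibits cysteine proteases, by 1.35 (SE 0.24), and Cast (calpastatin, the calpain inhibitor) by 0.67. Itih4, an acute phase gene of the inter-alpha-trypsin inhibitor family, rose by 0.66. Wfdc1, a whey acidic protein family gene, fell by 1.66 (SE 0.15) and Itih5 by 1.47 (SE 0.09). By a test with unequal variances 1 of them fell. The control mean of Kng2 (3.25) lay under the background, and against the background its rise was at least 1.715-fold.

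**Figure D4:**
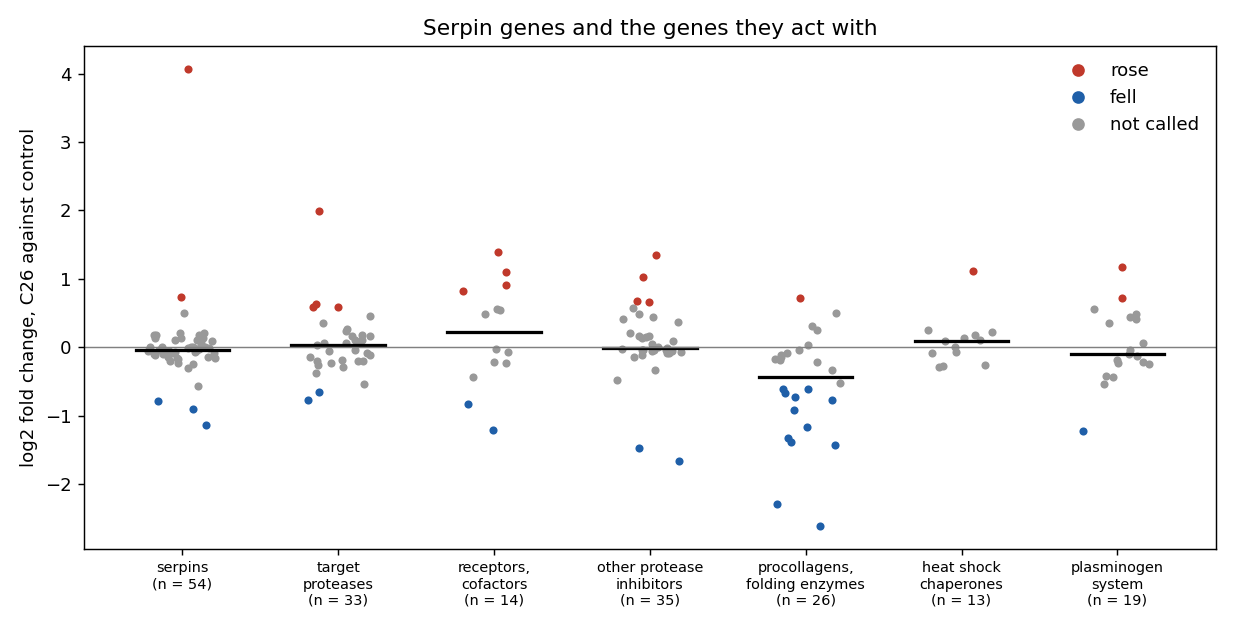
Log2 fold change (C26 against control, vertical axis) of the 54 serpin genes and of the measured genes of 6 other lists. The lists hold genes that act with serpins, other protease inhibitors and other heat shock chaperones. Each point is 1 gene, and the black line is the list median. Red marks genes that rose, blue genes that fell and grey the others. Points are spread sideways at random for legibility. Serpina3n is the highest point of the plot, and the procollagen list has the lowest median, at −0.43.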

How the data were processed

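RNA of pooled gastrocnemius and plantaris muscle was hybridized to Affymetrix Mouse Gene 1.0 ST arrays, with RNA integrity numbers of at least 8.0. Deposited were log2 values that the authors computed with RMA (GenePattern) and a Brainarray custom CDF of version 13, which gives 1 probe set per gene. RMA corrects background, normalizes by quantiles and summarizes probes, so that dim genes are compressed. The genome build of the probes was not given in the sources used here. Names came from the platform table, where 2420 probe sets have no symbol. The two-sided test was that of limma 3.58.1 (R 4.3.3, lmFit and eBayes, prior degrees of freedom 4.52), and p-values of all 21212 probe sets were adjusted after Benjamini and Hochberg. The 95% intervals are from the same fit. The permutation test used SciPy 1.17.1 in Python 3.11.15. The number of arrays, 6, limits precision. Scripts were tested on simulated data. Members, gene lists, markers and motifs were chosen with earlier results of these data known. Named were all members that passed or lay above the background, and up to 4 genes per list with the largest change among those that passed, and other genes of these lists were named after their values were seen. Summed signals are sums of back-transformed values. Alternatives were other tests, thresholds, scalings and backgrounds, a replicate block and leaving out each array.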

Additional observations from a re-analysis of the deposited data

How the results depend on the processing

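Serpina3n and Serpinf1 passed under all 17 alternatives run, and Serping1 and Serpinh1 under 16, all but a minimum of 2-fold. With that minimum 1 serpin gene rose and 1 fell, and without a fold minimum 6 fell, Serpina7, Serpinb1c and Serpinb9 being the others. The run without a fold minimum used the same fit, and so could not remove a call. Leaving out each array gave 2 to 3 genes that rose and 3 to 4 that fell. Genes above the background numbered 12 to 15 when each array was left out, 7 with the 99th percentile of receptor probe sets and 6 with the median of all probe sets. With the replicate number as a block, 2 serpin genes rose and 3 fell, as without it. The difference in this fit comes only from pools 1 and 3 of each group. Control pool 2 and C26 pool 4 have no pool of the same number in the other group. Same-numbered pools did not deviate together (correlation −0.06 for numbers 1 and 3), so the numbers were not taken to pair the pools. None of the 5 serpin genes that passed turned its direction under these alternatives, but only the other scalings could have done so. The other tests, thresholds and backgrounds leave the fold change as it is. Leaving out an array, or the block, cannot reverse groups whose pools do not overlap. Single genes of the other lists were not run. Of 132 counts of the other gene lists under alternatives, 12 moved by over 1.5 times. Signal over background limits 42 of the 54 genes, for which a change could hardly be seen.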
